A study of Mus musculus with 8 samples.

Results

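Alveolar macrophages that had been moved from one mouse to another without any time in culture (tAM) were compared with the resident alveolar macrophages of the recipient strain (HostAM), across all genes, by bulk RNA sequencing. The members are the 4 libraries that the labels assign to these groups, 2 for tAM and 2 for HostAM, of 8 libraries in all. tAM were cells of C57BL/6 mice that had spent 4 months in the lungs of C57Bl/6-Ly5.1 mice, and they were sorted from whole lung as SiglecF+ CD11c+ CD45.2+ cells. HostAM were SiglecF+ CD11c+ CD45.1+ cells sorted from whole lung of C57Bl/6-Ly5.1 mice. For HostAM the labels leave out the treatment of the mice (cells or saline) and the time of sampling, and for tAM the number of cells given. The mice used were 8 weeks old at the start, and each library was a pool of 3 mice, so p-values measure only the spread between these pools. The other groups were cells expanded in culture for 2 months (exAM, C57BL/6, not sorted) and expanded cells 4 months after transfer into C57Bl/6-Ly5.1 mice (texAM, sorted like tAM), and they enter only where named.

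Alveolar macrophages live on the air side of the lung, clear surfactant and inhaled particles, and maintain themselves locally under GM-CSF and TGF-beta signals that sustain the transcription factor PPAR gamma. CD45, the phosphatase encoded by Ptprc, exists in mouse strains in the allelic forms CD45.1 (Ly5.1) and CD45.2 (Ly5.2), which antibodies can tell apart, so a transferred cell can be sorted from its host. A Ly5.1 strain is bred by crossing the Ptprc allele of another strain into C57BL/6, and such congenic mice keep a stretch of the other strain's chromosome 1 around the selected gene. tAM and HostAM therefore differ in origin, in history of transfer, in the sorted allele and in the sequence around Ptprc, and these cannot be told apart in this design.

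The 4 libraries held 7733568 to 8898362 counts, within the 6546272 to 9154128 of the series. CPM below are counts scaled to a common library size. Over the 9453 genes at 10 CPM or more, the median absolute log2 difference was 0.166 between the tAM libraries and 0.213 between the HostAM libraries, against 0.187 to 0.236 for the pairs across the groups. The HostAM libraries thus lay about as far from each other as from tAM. On the first principal component of the 6 lung libraries, which carried 30.8% of the variance, HostAM replicate 1 stood apart from the rest at 66.0, followed by HostAM replicate 2 at 19.99. No gene exceeded 1.94 counts per base of its longest transcript, and 1632 of the 14537 tested genes passed 0.5 counts per base. Whether the deposited counts keep their proportion at such levels was not tested.

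Few genes separated transplanted from resident cells. Ctse, Wdfy1 and Slc22a4 fell in tAM relative to HostAM, and Cd163l1, Ppfia4 and Mfsd6 rose. These were the 6 of 14537 tested genes (0.0413%) with a Benjamini-Hochberg adjusted p under 0.05 in edgeR's quasi-likelihood test, 3 in each direction (0.0206% each). At an unadjusted p under 0.05 there were 1457 genes (10.0%), of which 638 were higher (4.39%) and 819 lower (5.63%) in tAM. The median log2 fold change over all tested genes was 0, and of the genes at 10 CPM or more 149 (1.58%) differed by over 2-fold. The number called depended on the processing, with 44 genes at a minimum of 50 counts, 190 with DESeq2's Wald test and 425 with no filter on low counts, and all 6 genes were among the calls of each. Without tAM replicate 2 no gene was called by edgeR, although 1260 had an unadjusted p under 0.05, and 1, 9 and 3 genes were called without tAM replicate 1, HostAM replicate 1 and HostAM replicate 2. A fit of only the 4 libraries compared called 4 genes, of which Ctse and Ppfia4 were among the 6.

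**Figure D1:**
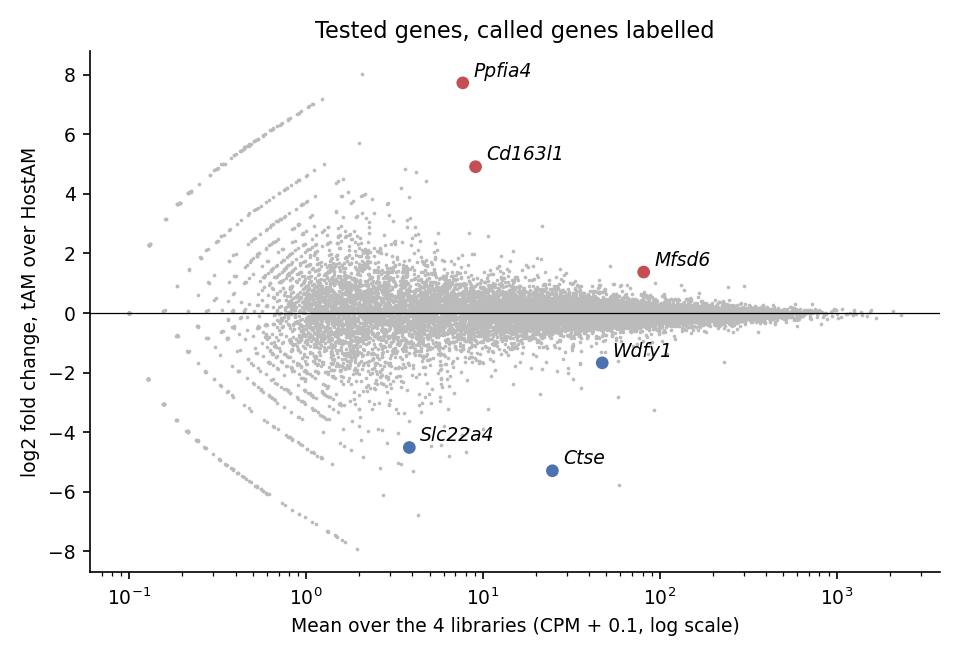
Log2 fold change of tAM over HostAM (y axis) against the mean level over the 4 libraries (x axis, CPM plus 0.1, log scale) for the tested genes, with the 3 genes called higher in red and the 3 called lower in blue. Most genes above 10 CPM lie close to 0, and the streaks at the left are genes with a handful of counts.

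Ctse, which encodes cathepsin E, an aspartic protease of endosomes of immune and epithelial cells, lies on chromosome 1 at 131638306-131675505 (GRCm38, plus strand). Its level was 0.929 and 1.505 CPM in the tAM libraries and 46.6 and 49.5 CPM in the HostAM libraries. It was close to absent in both transplanted pools, at 8 and 12 counts, and the groups were far apart. The log2 fold change was -5.29 (SE 0.486, edgeR adjusted p = 0.0102), a 39.2-fold lower level in tAM. In exAM no count was seen in either library, and in texAM it stood at 10.1 and 4.91 CPM, between tAM and HostAM.

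Wdfy1, an endosomal FYVE-domain protein that takes part in Toll-like receptor signalling, lies on the same chromosome at 79702262-79776143 (minus strand). It measured 24.3 and 20.8 CPM in tAM and 65.6 and 78.3 CPM in HostAM, with no overlap. The fold change was 3.19-fold lower in tAM (log2 fold change -1.67, SE 0.170, edgeR adjusted p = 0.0102). Both exAM libraries were higher than any lung library, at 147.5 and 163.5 CPM.

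Slc22a4 encodes OCTN1, the ergothioneine transporter, and is annotated on chromosome 11 at 53983123-54028090 (minus strand). It was at 0.464 and 0.125 CPM in tAM, which are 4 counts and 1 count, and at 7.94 and 6.45 CPM in HostAM. tAM were thus near the limit of detection, and HostAM were low but clearly above it. The difference was -4.51 on the log2 scale (SE 0.592, edgeR adjusted p = 0.0361), or 22.8-fold lower, and it was the least stable of the called genes, with a call in 10 of 16 alternatives against 13 to 15 of 17 for the others. The culture-expanded cells had more than any lung group, at 40.1 and 32.0 CPM.

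Among the genes that rose, Cd163l1 encodes a scavenger receptor of the CD163 family that is known in mice from gamma-delta T cells, and it lies on chromosome 7 at 140218267-140231145 (plus strand). It was at 12.3 and 22.6 CPM in tAM and at 0.441 and 0.691 CPM in HostAM. Both tAM pools were well above both HostAM pools, and the tAM pools differed from each other. The fold was 30.1 in favour of tAM (log2 fold change 4.91, SE 0.479, edgeR adjusted p = 0.0109). It was at 0 in exAM. In bulk RNA, a larger number of cells of another type and more RNA per cell cannot be told apart, and markers of T lymphocytes are given with this gene below.

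Ppfia4 encodes liprin-alpha-4, a scaffold protein best known from synapses, on chromosome 1 at 134296783-134332928 (minus strand). It measured 16.0 and 14.3 CPM in tAM, against 1 count in HostAM replicate 1 and 0 counts in HostAM replicate 2. The gene was therefore read in every transplanted library and hardly at all in the resident ones. Pooled over libraries the ratio was 269.8, with a counting interval from 47.98 to 10700 (95%, counting error only), and the edgeR adjusted p was 0.0142. texAM lay near tAM, at 19.1 and 11.6 CPM, and exAM had 2 counts and 0 counts.

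The third, Mfsd6, a membrane protein of the major facilitator family, lies on chromosome 1 at 52656286-52727462 (minus strand). It was at 119 and 115 CPM in tAM and at 40.7 and 49.5 CPM in HostAM, again without overlap. The level was 2.60-fold higher in tAM (log2 fold change 1.38, SE 0.161, edgeR adjusted p = 0.0156). In exAM it was low, at 12.5 and 10.5 CPM.

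**Figure D2:**
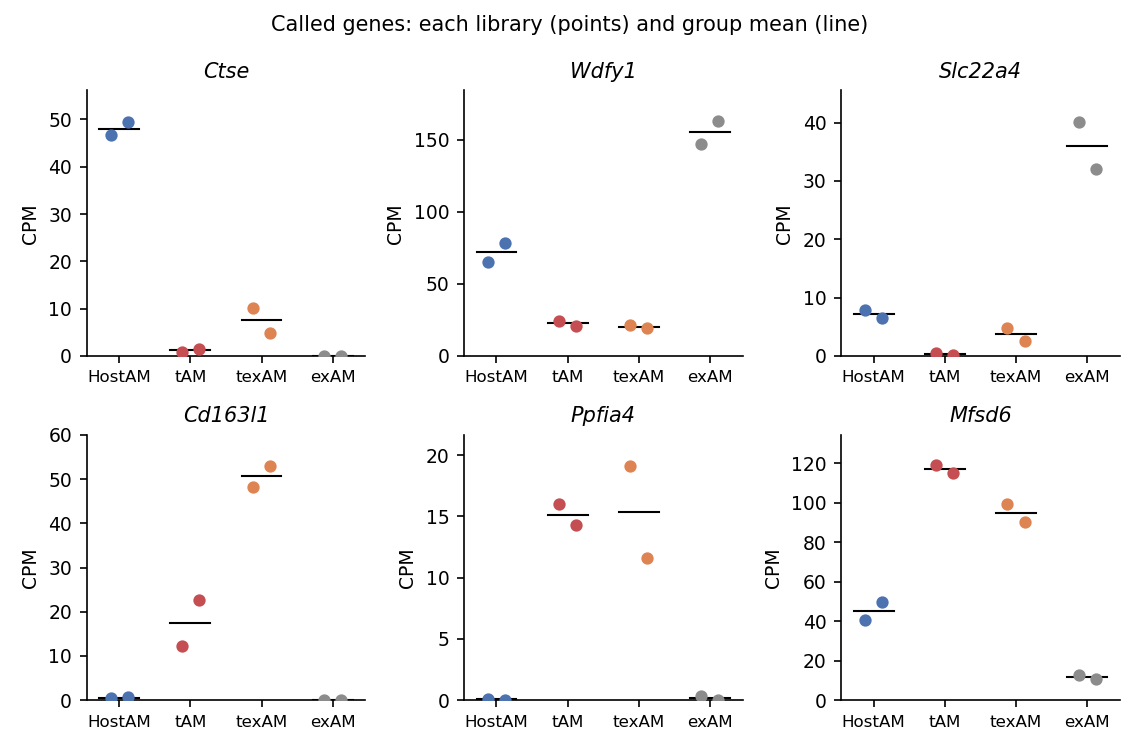
Levels in CPM (y axes, each from 0) of the 6 called genes in the 2 libraries of each group (points) with the group mean (line). tAM and HostAM do not overlap for any of them, and for Wdfy1, Ppfia4 and Mfsd6 the texAM libraries sit near tAM.

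The transplanted expanded cells came from the same donor strain and were sorted on the same allele, and they were compared with the same HostAM libraries, so the values below are not independent of those above. texAM against HostAM gave 48 called genes (0.330%), and texAM against tAM gave 1 (0.00688%), Arap2. For Wdfy1 the log2 fold change of texAM over HostAM was -1.83 (edgeR adjusted p = 0.00451), beside -1.67 for tAM. For Ppfia4 it was 7.75 (0.00917) beside 7.73, and for Mfsd6 1.07 (0.0264) beside 1.38. Ctse was less far from HostAM in texAM than in tAM, with -2.67 (edgeR adjusted p = 0.0365) beside -5.29, and Cd163l1 was farther, with 6.45 (0.0031) beside 4.91. Slc22a4 in texAM was not called against HostAM, with -0.95 (edgeR adjusted p = 0.376). Tested directly, texAM and tAM differed by 2.62 for Ctse (edgeR adjusted p = 0.274), 1.54 for Cd163l1 (0.388) and 3.57 for Slc22a4 (0.195) on the log2 scale, none of which passed the threshold.

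Ptprc itself, at chromosome 1 positions 138062861-138175708 (minus strand), gives no check of the alleles, because counts per gene do not separate them. Its level was 783.5 and 716.6 CPM in tAM and 660.6 and 794.5 CPM in HostAM, and the groups overlapped. The log2 fold change was 0.04, with a 95% interval from -0.17 to 0.26 (edgeR adjusted p = 0.939). CD45 transcript was thus abundant in the cells sorted by either antibody.

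Of the 6 called genes, 4 lie on chromosome 1, and Ctse and Ppfia4 lie 6.39 and 3.73 Mb from Ptprc on its lower-coordinate side. Within 10 Mb of Ptprc, 24 of 95 tested genes (25.3%) had an unadjusted p under 0.05, 12 higher and 12 lower in tAM, against 80 of 720 (11.1%) on the rest of the chromosome and 10.0% of all tested genes. The raised share sat on one side, with 23 of 80 genes (28.7%) up to 10 Mb below Ptprc. From Ptprc, itself counted, to 10 Mb above it the number was 1 of 15 genes. That gene was Ro60, which encodes an RNA-binding protein. The other chromosomes ranged from 4.17% for the mitochondrial genes to 11.6% for chromosome 13, and chromosome 1 as a whole stood at 12.8%. In the same window 31 of 95 genes (32.6%) had an unadjusted p under 0.05 for texAM over HostAM, beside 13.2% of all genes, and 7 (7.37%) beside 7.84% for texAM over tAM, the pair in which both groups carry the donor allele. These shares share the HostAM or tAM libraries and are given side by side only. Neighbouring genes are not independent, and the share near Ptprc ran from 17.0% to 28.2% over the settings tried, against 6.29% to 12.5% for all genes.

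The genes of this stretch lay in both directions. Ikbke, the kinase IKK-epsilon of interferon and NF-kB signalling, measured 14.6 and 14.6 CPM in tAM and 46.2 and 38.2 CPM in HostAM, a difference of -1.53 on the log2 scale that missed the threshold (edgeR adjusted p = 0.0608). The tAM pools were level with each other, and absence of overlap with HostAM was a condition for naming this gene. Genes named from here to the end of the paragraph were chosen after their values were seen. Ppp1r12b, a regulatory subunit of myosin phosphatase, was at 310 and 316 CPM in tAM and 177 and 166 CPM in HostAM (log2 fold change 0.87, edgeR adjusted p = 0.0687). Its groups did not overlap, and 19.1% of all tested genes likewise had both tAM libraries above both HostAM libraries. Chil1, a secreted chitinase-like protein, was at 0.929 and 1.63 CPM against 7.38 and 12.7 CPM, and Atp2b4, a plasma-membrane calcium pump, at 46.0 and 72.2 CPM against 115 and 121 CPM, with edgeR adjusted p of 0.183 and 0.178. Mapkapk2, a kinase downstream of p38, measured 186 and 195 CPM in tAM and 287 and 252 CPM in HostAM (edgeR adjusted p = 0.107). Kif21b, a kinesin motor, was higher in tAM, at 65.3 and 59.1 CPM against 16.0 and 41.4 CPM (edgeR adjusted p = 0.367). Of the 24 genes, 17 had a mean of 10 CPM or more.

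**Figure D3:**
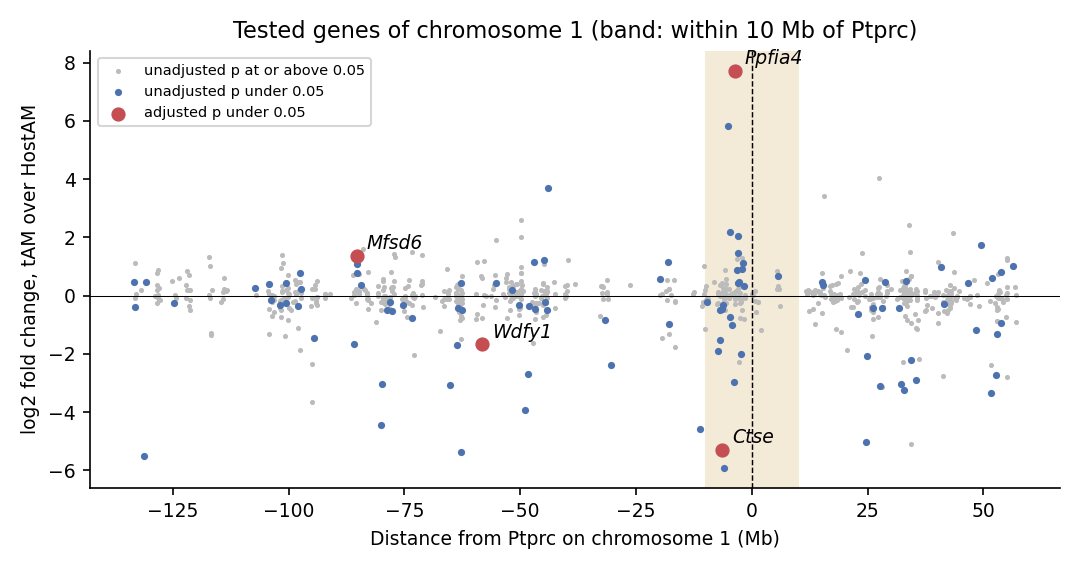
Log2 fold change of tAM over HostAM (y axis) for the tested genes of chromosome 1 by distance from Ptprc in Mb (x axis), with the window of 10 Mb shaded. Blue points have an unadjusted p under 0.05 and red points an adjusted p under 0.05, and 23 of the 24 such genes in the window lie to the left of Ptprc.

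Ppfia4 was read in tAM and hardly in HostAM, so the 250 bases before its annotated start are shown. They are RefSeq's reference sequence (GRCm38.p6, minus strand, 5′ to 3′, chr1:134332929-134333178), which is that of the C57BL/6J strain and so stands for the donor side. The sequence of the Ly5.1 mice at this place was not analysed here.
Ppfia4: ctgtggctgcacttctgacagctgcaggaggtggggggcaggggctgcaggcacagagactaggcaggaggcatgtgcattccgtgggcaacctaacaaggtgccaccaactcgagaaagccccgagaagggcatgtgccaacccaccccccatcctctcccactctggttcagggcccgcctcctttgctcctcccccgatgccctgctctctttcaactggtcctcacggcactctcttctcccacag
This stretch has no match on either strand to GAGGAA, the core recognised by the macrophage factor PU.1, which says only that these letters are not in this window. Such a core was found before 23.3% of the 32851 starts in the RefSeq table. Of the called genes, 4 were matched in that table, and 1 of them, Ppfia4 at another annotated start, had the core. Here a gene was counted if any of its listed starts had the core, which is not the unit of the share.

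Most genes that mark alveolar macrophages lay within 1.5-fold between the groups. None of the 40 tested genes for surface and secreted proteins of alveolar macrophages and none of the 34 tested lineage regulators was called. Siglecf, the sialic acid receptor used in the sort, measured 332 and 344 CPM in tAM and 293 and 306 CPM in HostAM. Itgax, which encodes CD11c, was at 678 and 734 CPM against 630 and 685 CPM, and the scavenger receptor Marco at 217 and 245 CPM against 245 and 210 CPM. All 3 were well read in every library, and the groups overlapped for Itgax and Marco. Both groups were sorted on the proteins of Siglecf and Itgax, so these genes give no independent check. The median log2 fold change was 0.09 for the surface list and -0.01 for the regulators, beside 0 for all tested genes, and 37 of 40 and 30 of 34 genes lay within 1.5-fold. In 19 surface genes both tAM libraries lay above both HostAM libraries and in 2 below, beside 19.1% and 18.7% of all tested genes. For the regulators these numbers were 3 and 8. Of these lists, 33 and 17 genes passed 0.5 counts per base, where proportion was not tested.

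Regulators of the lineage were at like levels. Pparg, the nuclear receptor that defines the type, was at 202 and 199 CPM in tAM and 227 and 193 CPM in HostAM (log2 fold change -0.07, edgeR adjusted p = 0.915). Csf2ra and Csf2rb, the chains of the GM-CSF receptor, differed by 0.08 and 0.03 on the log2 scale, and the transcription factors Cebpa, Bhlhe40 and Bhlhe41 by -0.07, 0.06 and 0.05, with edgeR adjusted p of 0.851 or more for each. The groups overlapped for each of these but Csf2ra, which was 236 and 256 CPM against 232 and 233 CPM. At an unadjusted p under 0.05, Cish, a feedback inhibitor of cytokine signalling through STAT5, was higher in tAM, and Irf4, Irf8 and Itgb8 were among those that were lower. Itgb8, an integrin chain that activates TGF-beta, was low in all 4, from 0.812 to 6.56 CPM.

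In the surface list, 5 of 40 tested genes had an unadjusted p under 0.05 in favour of tAM and 1 in favour of HostAM. The shares of all tested genes were 4.39% and 5.63%. Epcam, an adhesion molecule found on alveolar macrophages and on epithelium, was the farthest, at 166 and 181 CPM in tAM and 98.4 and 105 CPM in HostAM. The groups did not overlap, at a log2 fold change of 0.77 (edgeR adjusted p = 0.0714). The lipid receptor Trem2, the cytokine Il18, the protease inhibitor Serpinb1a and the fatty acid carrier Fabp4 differed by 0.54, 0.47, 0.51 and 0.31 on the log2 scale. The ribonuclease Ear6 was lower in tAM, at 5.11 and 7.90 CPM against 9.26 and 11.2 CPM.

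Genes of antigen presentation on MHC class II, by which phagocytes display peptides to CD4 T cells, included several at higher levels in tAM, short of the threshold. Of 18 tested genes of class II presentation and co-stimulation none was called, and 6 were higher and 1 lower at an unadjusted p under 0.05, against 4.39% and 5.63% of all tested genes. The median log2 fold change was 0.16, and 14 lay within 1.5-fold. Ciita, the transactivator that switches class II genes on, was among the 5 genes with the smallest p in favour of tAM. It measured 68.1 and 88.5 CPM in tAM and 25.1 and 27.5 CPM in HostAM (log2 fold change 1.57, SE 0.238, edgeR adjusted p = 0.0617). Its call depended on the setting, as it passed in the fit of the 6 lung libraries (edgeR adjusted p = 0.0266) and with DESeq2 (1.06e-06), and its adjusted p over the alternatives ran from 6.6e-08 to 0.305.

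The class II genes described next were chosen after their values were seen. H2-Eb1, a chain of the I-E molecule, was at 162 and 186 CPM in tAM and 81.6 and 101 CPM in HostAM, without overlap (log2 fold change 0.93, edgeR adjusted p = 0.0617). H2-Oa, a chain of the modulator of peptide loading, was at 12.5 and 10.2 CPM against 4.74 and 3.91 CPM (edgeR adjusted p = 0.318). The I-A chains H2-Aa and H2-Ab1 and the loading factor H2-DMb1 differed by 0.39, 0.38 and 0.56, and Cd74, the invariant chain, by 0.19 on the log2 scale. In each of these the tAM libraries lay above the HostAM libraries. Of the 18 tested genes of the list 10 lay above in this way and 3 below, beside 19.1% and 18.7% of all tested genes. Cd40, a co-stimulatory receptor, went the other way, at 0.812 and 1.25 CPM in tAM and 7.05 and 5.41 CPM in HostAM (edgeR adjusted p = 0.241). Dendritic cells also carry class II. The summed level of 20 dendritic cell markers was 1607 and 1755 CPM in tAM and 1695 and 1937 CPM in HostAM. Over the 19 tested the median log2 fold change was -0.61. The sum was 1439 and 1276 CPM in exAM, where H2-Aa was at 3.43 and 7.26 CPM. How much of the sum came from dendritic cells, and their part in the class II values, was not tested.

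The promoter of H2-Eb1 is shown because class II genes share promoter elements, among them an inverted CCAAT sequence called the Y box. The 250 bases before the annotated start (RefSeq, GRCm38.p6, plus strand, chr17:34305617-34305866) hold 2 matches to CCAAT, counted on both strands and printed in capitals.
H2-Eb1: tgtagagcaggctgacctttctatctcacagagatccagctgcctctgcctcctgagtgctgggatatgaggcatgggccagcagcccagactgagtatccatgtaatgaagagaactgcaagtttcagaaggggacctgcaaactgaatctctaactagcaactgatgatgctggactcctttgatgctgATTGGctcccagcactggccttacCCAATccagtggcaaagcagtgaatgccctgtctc
Of 6 class II genes looked up in the RefSeq table, 4 were matched (H2-Eb1, H2-Aa, H2-DMb1 and H2-Oa), and Ciita was not among these 4. Each of the 4 had an unadjusted p under 0.05 in favour of tAM. All 4 had a CCAAT in this window, as did 33.8% of all listed starts. A match is a description of the letters and not of a bound site.

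Class I presentation genes followed with smaller differences. Of 20 tested genes 4 were higher and 0 lower at an unadjusted p under 0.05, against 4.39% and 5.63% of all tested genes. None was called, and the median log2 fold change was 0.11. The non-classical class I genes H2-Q6 and H2-Q7 were at 25.4 and 33.5 CPM and at 26.5 and 25.8 CPM in tAM, against 10.5 and 19.6 CPM and 11.02 and 17.6 CPM in HostAM. These neighbours are near-identical copies, so reads may have been split between them and their separate values are uncertain. H2-M3, which presents formylated peptides, and Erap1, which trims peptides in the endoplasmic reticulum, differed by 0.69 and 0.40 on the log2 scale. Interferon-stimulated genes, which include regulators of both presentation pathways, had a median of -0.13 over 55 tested genes. At an unadjusted p under 0.05, 0 were higher and 4 lower, beside the same 4.39% and 5.63% of all tested genes. These 4 were Rsad2, Cxcl10, Ifi44 and Ifi208, and the last pair was under 5 CPM in every library.

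Some antioxidant genes were at lower levels in tAM, short of the threshold. The transcription factor NRF2 drives enzymes of glutathione and thioredoxin metabolism, and of the 34 tested genes of this list 8 were lower and 1 higher at an unadjusted p under 0.05, against 5.63% and 4.39% of all tested genes. None was called, the median log2 fold change was -0.12, and 25 lay within 1.5-fold. In 17 genes both tAM libraries lay below both HostAM libraries and in 6 above, beside 18.7% and 19.1% of all tested genes. Slc7a11, the cystine importer that feeds glutathione synthesis, was at 132 and 90.9 CPM in tAM and 276 and 425 CPM in HostAM, with log2 fold change -1.65 (SE 0.260, edgeR adjusted p = 0.0617). Gclm, the modifier subunit of the rate-limiting enzyme of that synthesis, measured 64.8 and 56.7 CPM against 108 and 130 CPM (log2 fold change -0.97, edgeR adjusted p = 0.0617). Both were lower in each tAM library than in each HostAM library. Srxn1, which restores oxidised peroxiredoxins, was at 87.3 and 84.1 CPM against 184 and 132 CPM, and the haem-degrading Hmox1 at 245 and 241 CPM against 315 and 338 CPM. Gss, Gclc, Txnrd1 and Me1 were lower by -0.80, -0.36, -0.40 and -1.73 on the log2 scale, and Prdx2 was higher by 0.39. All genes of this paragraph were chosen after their values were seen. The core TGACNNNGC of the antioxidant response element stood before 2 of the 6 lower genes matched in the RefSeq table, Gclm and Txnrd1. It stood before 10.2% of all listed starts. A gene was counted if any of its listed starts had the core, so genes and starts are unlike units here.

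Iron handling and heat shock genes included the next group of lower values, and their genes too were chosen after the values were seen. Of 24 tested iron and haem genes none was called and 6 were lower and 1 higher at an unadjusted p under 0.05, against 5.63% and 4.39% of all tested genes. Markers of red cells and platelets went the same way, at a summed level of 94.4 and 87.3 CPM in tAM against 222.5 and 161.5 CPM in HostAM, and their part in the iron and haem values was not tested. Slc11a1, the phagosomal metal transporter NRAMP1, lies on chromosome 1 outside the stretch described and was at 21.1 and 11.9 CPM in tAM and 59.9 and 48.6 CPM in HostAM (log2 fold change -1.71, edgeR adjusted p = 0.107). The haemoglobin-binding protein Hp was at 2.09 and 2.26 CPM against 8.71 and 11.5 CPM. Tfrc, the transferrin receptor, was the exception, higher in tAM at 31.6 and 25.96 CPM against 10.6 and 14.04 CPM (log2 fold change 1.22, edgeR adjusted p = 0.204). Of the iron genes named here, the tAM libraries stood lower for a transporter and a scavenger and higher for the uptake receptor. Over the 24 tested genes the median log2 fold change was -0.1, and 17 lay within 1.5-fold.

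Of 18 tested heat shock genes none was called and 4 were lower and 1 higher at an unadjusted p under 0.05, where the shares of all tested genes were 5.63% and 4.39%. Their median log2 fold change was -0.05, and 15 lay within 1.5-fold. Hspa1a, an inducible HSP70, measured 3.48 and 7.65 CPM in tAM and 33.95 and 39.25 CPM in HostAM (log2 fold change -2.72, edgeR adjusted p = 0.0617), and Hspa1b 2.09 and 2.01 CPM against 20.7 and 17.6 CPM. These are near-identical copies, so their split is uncertain, but both were lower in each tAM library. The small heat shock protein Cryab was at 1.16 and 2.38 CPM against 10.0 and 9.67 CPM, and Hsph1, a partner of HSP70, differed by -0.47 on the log2 scale. Genes of this kind also respond to tissue handling, and handling of the pools was not tested. A heat shock element, GAANNTTC, stood before 2 of the 3 matched lower genes (Hspa1a and Hspa1b) and before 6.69% of all listed starts. Genes were counted by any of their listed starts, which is not the unit of the share.

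**Figure D4:**
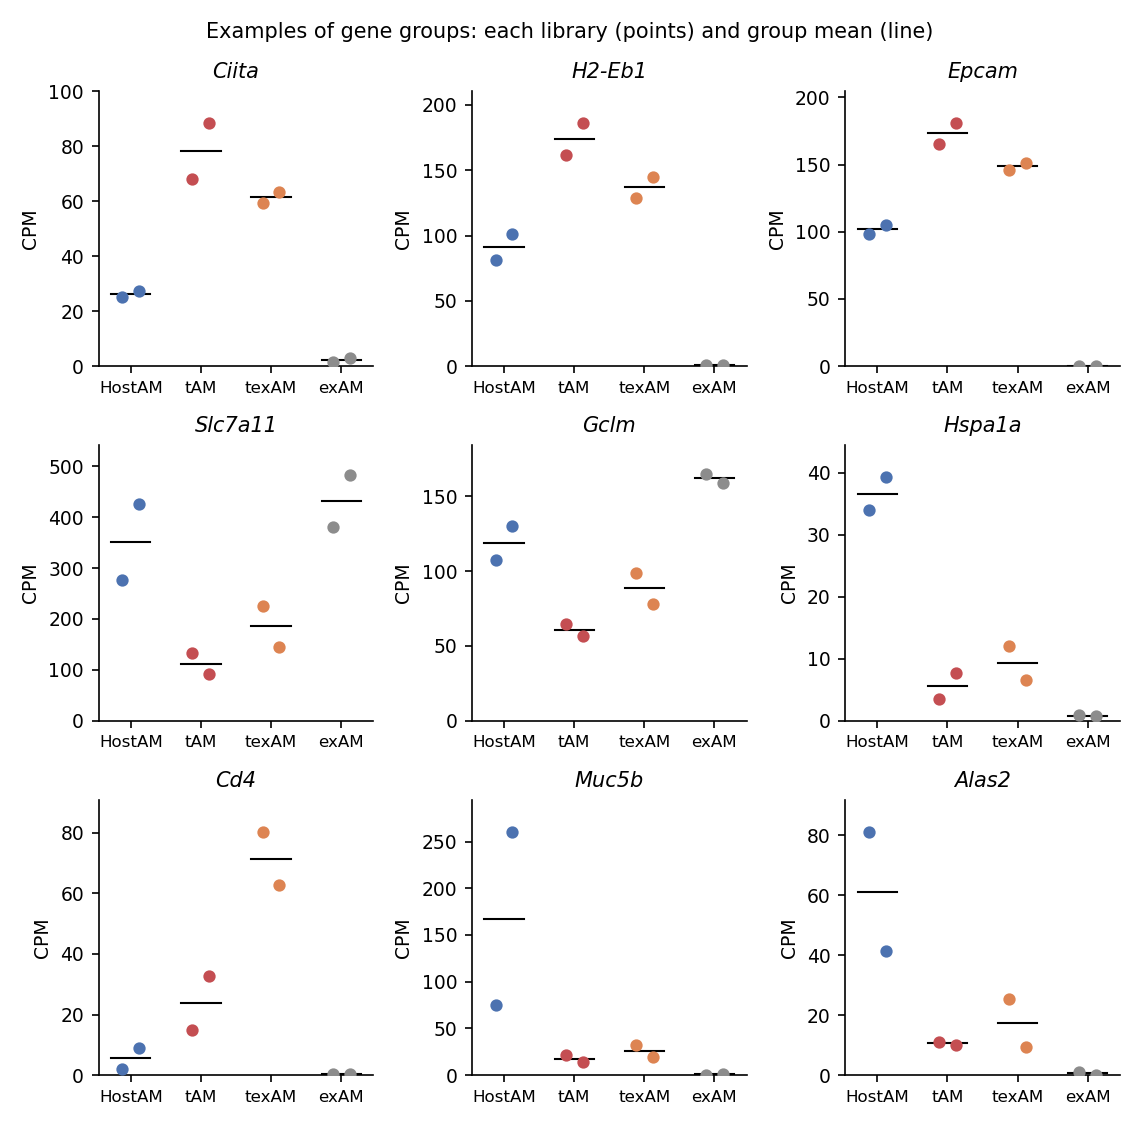
Levels in CPM (y axes, each from 0) in the 2 libraries of each group (points) and group mean (line) for 9 genes of the groups described: class II (Ciita, H2-Eb1), Epcam, antioxidant (Slc7a11, Gclm), heat shock (Hspa1a), T cell (Cd4), airway mucus (Muc5b) and red cell precursors (Alas2). tAM and HostAM do not overlap for any of the 9, and none was called. Of all tested genes, 19.1% lay without overlap above HostAM and 18.7% below, and several of the 9 were chosen after their values were seen.

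Most other programmes differed little. Over all 30 lists of pathways and programmes, 808 different genes were tested, none was called, and 101 (12.5%) had an unadjusted p under 0.05, 41 higher and 60 lower, near the 10.0% of all tested genes. List medians ran from -0.13 to 0.16. None of the 43 tested lysosomal genes had an unadjusted p under 0.05 and all lay within 1.5-fold, although 31 of them passed 0.5 counts per base. Of 23 tested cholesterol synthesis and uptake genes 5 were lower and 0 higher at an unadjusted p under 0.05, beside 5.63% and 4.39% of all tested genes. All 5 were within 1.5-fold, among them the sterol sensor Insig1 at 80.1 and 75.2 CPM against 105 and 96.5 CPM. Oxidative phosphorylation had a median of 0.12 with 1 of 32 genes higher, and the cell cycle list a median of -0.06 with 1 of 46 genes higher and 3 lower, by the same unadjusted p. Cytokines and chemokines had a median of -0.04, and Ccl3, which recruits leukocytes, was at 12.4 and 8.65 CPM in tAM and 29.1 and 26.01 CPM in HostAM (log2 fold change -1.38, edgeR adjusted p = 0.0617). Atf3, a stress-induced transcription factor of the immediate early list, was at 25.3 and 27.5 CPM against 64.0 and 68.0 CPM (edgeR adjusted p = 0.107). The 3 genes named with values in this paragraph, too, were chosen after their values were seen.

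**Figure D5:**
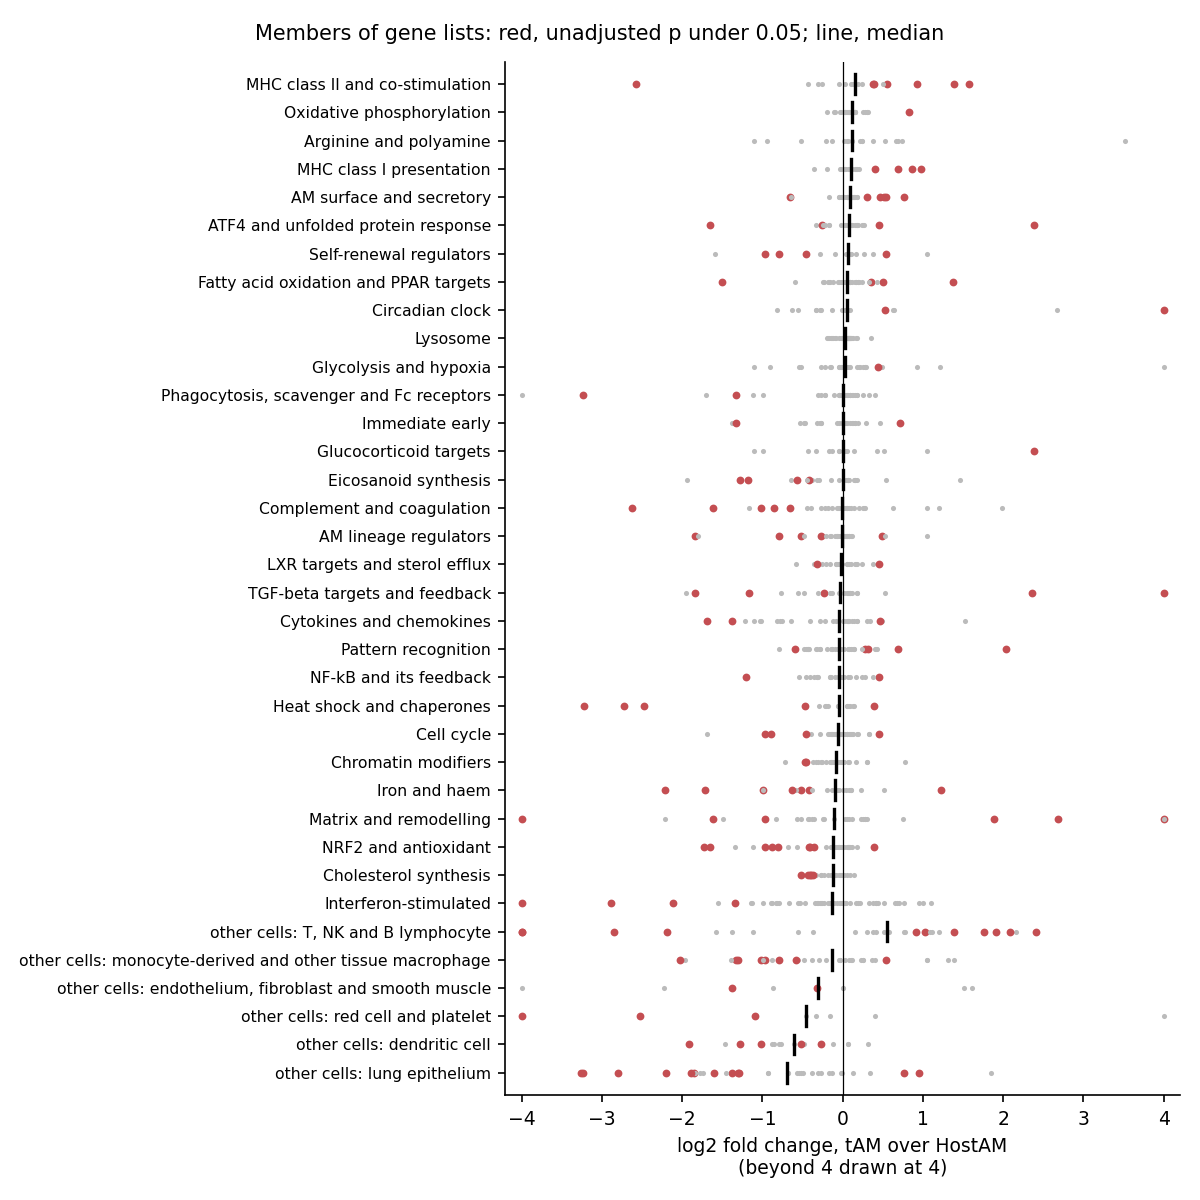
Log2 fold change of tAM over HostAM (x axis) for the tested members of each list (rows), with members at an unadjusted p under 0.05 in red and the median as a line. Medians of the 30 programme lists lie between -0.13 and 0.16, while those of the marker lists drawn stand at -0.69 for lung epithelium, -0.61 for dendritic cells, -0.46 for red cells and platelets, -0.31 for endothelium and stroma, -0.13 for other macrophages and 0.55 for lymphocytes.

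Across all genes, those with the smallest p short of the threshold included Ciita and Zfp532 in favour of tAM and Ikbke and Mtus1 in favour of HostAM. Zfp532, a zinc finger protein, was at 44.8 and 35.0 CPM in tAM and 11.9 and 16.6 CPM in HostAM (log2 fold change 1.49, edgeR adjusted p = 0.0617). Mtus1, a microtubule-associated protein, was at 20.9 and 19.6 CPM against 45.7 and 40.9 CPM (log2 fold change -1.10, edgeR adjusted p = 0.0617). Absence of overlap between the groups was a condition for naming Zfp532, Mtus1, Ikbke and Ciita, so it is not a result. Further genes, chosen after their values were seen, were the glutamate transporter Slc1a3, at 42.7 and 33.1 CPM against 3.53 and 6.45 CPM, the platelet-activating factor receptor Ptafr, at 44.8 and 52.5 CPM against 105 and 95.3 CPM, and the clock output factor Hlf, at 7.196 and 6.52 CPM against 0.441 and 0 CPM, with edgeR adjusted p of 0.0617, 0.0617 and 0.0843. Nnt, a mitochondrial transhydrogenase in which the J substrain of C57BL/6 is known to carry a deletion, was at 62.0 and 79.1 CPM in tAM and 149 and 120 CPM in HostAM (log2 fold change -0.93, edgeR adjusted p = 0.0751). It was at 69.6 and 64.0 CPM in texAM and at 127.3 and 112.3 CPM in exAM, both also C57BL/6 cells. The labels do not give the substrain of the donors, and its part in these values was not tested.

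Both groups were sorted from whole lung, and markers of some other cell types differed in level between them. Lung epithelial markers were lower in tAM, with a summed level of 1210 and 1191 CPM over 38 genes in tAM and 1632 and 1967 CPM in HostAM. In exAM the sum was 768.3 and 743 CPM, although Epcam and Bpifb1 had no count there. How much of the sum came from epithelium was not tested. Of 34 tested markers, 10 were lower and 2 higher at an unadjusted p under 0.05, against 5.63% and 4.39% of all tested genes. None was called, and the median log2 fold change was -0.69. Muc5b, an airway mucin, was at 21.2 and 13.8 CPM in tAM and 74.8 and 260 CPM in HostAM, and Bpifb1, a secreted airway defence protein, at 19.1 and 9.91 CPM against 76.3 and 127 CPM. Both HostAM libraries were higher than both tAM libraries, and HostAM replicate 2 was the highest. The secretoglobin Scgb3a1 was at 32.1 and 25.2 CPM against 81.5 and 93.0 CPM, while the club cell marker Scgb1a1 was at 80.7 and 85.3 CPM against 86.2 and 95.1 CPM and the type 2 cell marker Sftpc at 13 and 14.2 CPM against 13.2 and 14.3 CPM. In 20 of the 34 tested markers both tAM libraries lay below both HostAM libraries and in 3 above, beside 18.7% and 19.1% of all tested genes. Muc5b, Bpifb1 and Scgb3a1 were among the 20. The basal cell keratins Krt5 and Krt14 had no count in the 4 libraries. Clca1, a goblet cell product that is outside the lists and was picked with its values known, measured 3.13 and 1.00 CPM against 30.5 and 201 CPM (edgeR adjusted p = 0.0617). The part of epithelial RNA in the other differences was not tested.

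T lymphocyte markers were higher in tAM on balance, but the libraries of both groups overlapped. The summed level of 36 T, NK and B cell markers was 201 and 392.6 CPM in tAM and 119.8 and 294.1 CPM in HostAM, and it reached 842.1 and 742.8 CPM in texAM. In exAM it was 388.6 and 315.3 CPM, although Cd3e had no count there. How much of the sum came from lymphocytes was not tested. Of 28 tested markers, 7 were higher and 4 lower at an unadjusted p under 0.05, against 4.39% and 5.63% of all tested genes. Their median log2 fold change was 0.55. Cd4 was at 14.7 and 32.7 CPM in tAM and 2.09 and 9.09 CPM in HostAM. For Cd3e, a chain of the receptor complex, the values were 26.7 and 56.9 CPM against 12.9 and 28.2 CPM. Replicate 2 was the higher library in each group for these genes. The lower ones rested on HostAM replicate 2, as with the cytotoxic granule gene Nkg7, at 0.116 and 0.251 CPM in tAM and 0.2204 and 12.9 CPM in HostAM, and the coreceptor Cd8a, at 2.44 and 1.63 CPM against 1.54 and 17.1 CPM.

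Cd163l1 belongs beside these values. In a list of gamma-delta T cell genes that was put together after the values were seen, the summed level of 16 genes was 66.5 and 80.8 CPM in tAM, 27.6 and 35.9 CPM in HostAM and 223.7 and 181 CPM in texAM, and Cd163l1 was the only call among 14 tested. The sum includes Cd163l1 itself, at 12.3 and 22.6 CPM in tAM, 0.441 and 0.691 CPM in HostAM and 48.2 and 52.9 CPM in texAM. It is therefore not independent of that gene. Trgc1, a constant segment of the gamma chain of the T cell receptor, was at 4.41 and 5.89 CPM in tAM, 0.441 and 0.345 CPM in HostAM and 20.3 and 14.03 CPM in texAM. The kinase Blk was at 1.86 and 2.01 CPM in tAM and at 0 and 0.230 CPM in HostAM, and the transcription factor Sox13 overlapped between the groups. Over the 14 tested genes the log2 fold changes ran from -3.78 to 4.91 with a median of 1.16, and 5 overlapped between the groups. At an unadjusted p under 0.05, 4 were higher and 0 lower, against 4.39% and 5.63% of all tested genes. Cd163l1 and Trgc1 had the same order of groups, from HostAM through tAM to texAM, and were at 0 in exAM. The part of such cells in the Cd163l1 value was not tested.

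The other marker lists were read in the same way, and none of their tested genes was called. Dendritic cell markers had a median log2 fold change of -0.61 over 19 tested genes. At an unadjusted p under 0.05, 5 were lower and 0 higher, against 5.63% and 4.39% of all tested genes. The actin bundler Fscn1 was at 17.1 and 40.4 CPM in tAM and 48.4 and 67.9 CPM in HostAM. Markers of monocyte-derived and other tissue macrophages summed to 1814 and 1841 CPM in tAM and 1801 and 1920 CPM in HostAM, with a median of -0.13. Red cell and platelet markers summed to 94.4 and 87.3 CPM against 222.5 and 161.5 CPM, with a median of -0.46, and Alas2, the haem synthesis enzyme of red cell precursors, was at 11.03 and 10.16 CPM against 81.0 and 41.2 CPM (edgeR adjusted p = 0.119). Endothelial, fibroblast and smooth muscle markers summed to 259 and 260.4 CPM against 354.4 and 307 CPM, and granulocyte and mast cell markers to 603.8 and 636 CPM against 617.8 and 615.5 CPM. In exAM the same lists summed to 275.9 and 296.6 CPM and to 664.1 and 421.1 CPM. Of the 24 granulocyte and mast cell markers, 11 had no count in any of the 4 libraries. How much of these sums came from such cells was not tested. Both HostAM libraries had the higher sums for the epithelial, red cell and stromal lists. The sums overlapped for the dendritic cell, granulocyte and other macrophage lists. Xist was at 1726 and 1520 CPM in tAM and 1329 and 1708 CPM in HostAM, and the Y-linked Ddx3y had no count in any of the 4.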

How the data were processed

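The deposited values were raw counts of reads per Ensembl gene, given as whole numbers for 37310 IDs. The submitters' processing notes list Bowtie, HTSeq 0.6.1, R 3.3 and the build mm10 (GRCm38) without parameters. Per the labels' protocols, cDNA was amplified by single-primer isothermal amplification (NuGEN Ovation V2) before library construction, so counts are not independent molecules. Whether duplicates were removed or strand was used is not given in the sources used here.

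Positions came from GENCODE M21, in which 87.4% of the IDs were found, and promoters from RefSeq (GRCm38.p6). Counts were fitted with edgeR 4.0.16 (limma 3.58.1, R 4.3.3) on all 8 libraries with 1 coefficient per group, filterByExpr (minimum of 10 counts), TMM and robust quasi-likelihood, which left 4 residual degrees of freedom and a biological coefficient of variation of 0.22. The contrast was tAM over HostAM, with p adjusted by Benjamini-Hochberg over the 14537 genes tested and calls made under 0.05. CPM use TMM-scaled library sizes. The test was checked on simulated counts.

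The groups compared, the 30 gene lists and 8 marker lists were chosen with earlier results of these data known. Genes were named by a rule: the 15 largest called changes per direction at 5 CPM or more without overlap, up to 2 called genes per list and direction, called genes within 20 Mb of Ptprc, Ptprc, members of the alveolar macrophage and marker lists, and, where under 5 genes were called, the 5 smallest p in each direction at the same level. Absence of overlap was also required of the 5 smallest p. The text says where a gene lies outside the rule. DESeq2 1.42.0, other scalings and filters, fits of fewer libraries, a replicate block and leaving out each library were the alternatives. Some genes are not reported here.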

Additional observations from a re-analysis of the deposited data

How the results depend on the processing

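Scaling by DESeq2 size factors or by library size alone, a 2-fold minimum, leaving out genes over 0.5 counts per base and leaving out marker genes that are in no programme list (the gamma-delta T cell list was kept) each gave 3 genes higher and 3 lower. Genes called higher and lower in tAM numbered 173 and 252 with no filter, 15 and 29 at a minimum of 50 counts, 74 and 116 with DESeq2 (8842 adjusted p not given), 3 and 1 in the fit of the 4 libraries compared, 6 and 2 in the fit of the 6 lung libraries, and 17 and 30 without genes under 5 CPM, an alternative chosen after seeing the data. Leaving out 1 library gave 0 to 2 higher and 0 to 7 lower, where a lone library is assumed to vary like the other groups. None of the 6 called genes changed direction in any setting; Slc22a4 was not tested without genes under 5 CPM.

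Members of the gene lists called, 0 in the analysis reported, numbered 37 with no filter, 11 at 50 counts, 23 with DESeq2, 1 in the 6-library fit, 11 without genes under 5 CPM and 0 to 1 when 1 library was left out. Called genes within 10 Mb of Ptprc, 2 as reported, numbered 13, 5, 9 and, without genes under 5 CPM, 5 in the same settings, and 0 to 2 when 1 library was left out. texAM against HostAM, 48 as reported, gave 694 with no filter, 106 at 50 counts and 380 with DESeq2, and texAM against tAM, 1 as reported, gave 238, 73 with DESeq2 and 0 in the 6-library fit.

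The replicate number as a block gave 3 higher and 3 lower calls for tAM against HostAM, 29 for texAM against HostAM and 0 for texAM against tAM. Deviations of same-numbered tAM and HostAM libraries correlated at -0.156 over 9453 genes, so the numbers were not taken to pair the samples. Pairing them crosswise, chosen after seeing the data, gave 4 higher and 8 lower, with 2 list members.

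Some genes that were not called changed sign when 1 library was left out, with log2 fold changes from -0.08 to 0.18 for Ptprc, -0.09 to 0.14 for Marco, -0.18 to 0.06 for Pparg, -0.02 to 0.09 for Csf2rb, -0.25 to 0.1 for Cebpa, -0.03 to 0.15 for Bhlhe40, 0 to 0.11 for Bhlhe41, -0.08 to 0.05 for Sftpc (0 with library size alone), -3.06 to 0.39 for Cd8a and -0.07 to 0.29 for Xist. The cause of the changes with the settings was not tested.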
